A study of Mus musculus with 12 samples.

Results

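The 10 genes described here, most known from differentiated tissues, were lower in mouse embryonic stem cells grown with L-proline than in control cells. They are Ttn, Mymx, Cobl, Calml4, Ceacam20, Myo1f, Spink1, Slc47a1, Hsd17b14 and Accsl, 10 of the 18193 genes measured, and 19 of the 34945 probe sets with 1 gene symbol report on them. They were chosen by their array signals, for large and consistent decreases in this same comparison, so their differences between the groups are given as a description and carry no test. The comparison asks how added L-proline affects the transcripts of these cells.

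The cells are TBV2, a wild-type embryonic stem cell line of strain 129/SvP. Both groups were grown sparsely for 5 days on gelatin, with no feeder layer, in medium that held leukemia inhibitory factor (LIF) and had no non-essential amino acids, with nothing added in the control group and 500 µM L-proline in the other. Each group has 2 numbered biological replicates of 3 Affymetrix expression arrays, marked a to c, 12 arrays in all. The labels do not say what the letters stand for. They were taken as repeat arrays, and the mean of the 3 is the value of a replicate; with the 12 arrays taken as independent samples, limma would call 6804 genes and not 794. The labels do not say how biological replicates were kept apart, and the study rests on this 1 cell line. The errors below thus measure only spread between such replicate values, which may be partly technical. The moderated SE of a gene, given after ±, also draws on the spread over all genes. The array medians of log2 signal lay between 5.99 and 6.03. All 10 embryonic stem cell markers listed, Pou5f1 and Sox2 among them, read above the 40th percentile of probe sets (a log2 signal of 5.36) in both groups, from 11.55 to 14.24 in control and from 11.16 to 13.89 after proline. Of these markers Zfp42 fell (-1.39 ± 0.14, adjusted p = 0.0288 in limma) and 9 did not pass, among them Lin28a (0.67 ± 0.11, adjusted p = 0.0530) and Sox2 (-0.55 ± 0.11, adjusted p = 0.0776). In all, 9 of the 10 were below 0, with a median of -0.32, 5 had an unadjusted p under 0.05 (22.1% of all genes had one), and their summed linear signal was 71850 to 73498 in control and 55496 to 58897 after proline. The part of this shift in the levels of the 10 genes described here was not tested.

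The proteins of most of these genes are known from very different cells. Titin (Ttn) is the giant elastic protein of the muscle sarcomere, and Mymx encodes myomixer, a short membrane peptide that drives the fusion of myoblasts into muscle fibres. Cobl encodes cordon-bleu, which nucleates actin filaments, and the proteins of Calml4 and Ceacam20 are found on the microvilli of the intestinal brush border, Calml4 as a calmodulin-like light chain and Ceacam20 as a membrane glycoprotein. Myo1f is a class I myosin of leukocytes. Spink1 inhibits trypsin in the pancreas, Slc47a1 (MATE1) exports organic cations in kidney and liver, Hsd17b14 is a hydroxysteroid dehydrogenase, and Accsl is named for its likeness to a synthase that makes the ethylene precursor in plants.

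Promoter sequences were at hand for 6 of the 10 genes, as 9 annotated starts in RefSeq (build GRCm38.p6): 3 of Accsl, 2 of Cobl and 1 each of Ttn, Ceacam20, Calml4 and Myo1f. The 250 bases before 4 of these starts are printed because they span the range of base composition among genes that were lower together. They run 5′ to 3′ toward the start, and capitals mark CG dinucleotides, the sites of DNA methylation in mammals.
Ttn (chr2:76982548-76982797, minus strand): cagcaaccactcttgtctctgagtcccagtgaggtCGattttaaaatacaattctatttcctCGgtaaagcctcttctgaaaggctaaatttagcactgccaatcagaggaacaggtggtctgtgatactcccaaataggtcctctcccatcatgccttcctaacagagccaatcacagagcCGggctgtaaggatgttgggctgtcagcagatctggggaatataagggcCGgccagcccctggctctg
Myo1f (chr17:33555457-33555706, plus strand): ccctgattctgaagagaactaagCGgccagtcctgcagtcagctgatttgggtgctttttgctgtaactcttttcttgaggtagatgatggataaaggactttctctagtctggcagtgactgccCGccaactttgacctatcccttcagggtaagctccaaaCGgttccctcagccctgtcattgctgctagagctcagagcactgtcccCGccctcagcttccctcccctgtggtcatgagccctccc
Accsl (chr2:93930483-93930732, minus strand): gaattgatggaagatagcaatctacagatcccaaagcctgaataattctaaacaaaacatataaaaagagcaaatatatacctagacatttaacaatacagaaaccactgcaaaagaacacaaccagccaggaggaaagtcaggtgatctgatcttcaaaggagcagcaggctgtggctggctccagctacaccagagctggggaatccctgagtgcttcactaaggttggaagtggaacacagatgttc
Cobl (chr11:12464961-12465210, minus strand): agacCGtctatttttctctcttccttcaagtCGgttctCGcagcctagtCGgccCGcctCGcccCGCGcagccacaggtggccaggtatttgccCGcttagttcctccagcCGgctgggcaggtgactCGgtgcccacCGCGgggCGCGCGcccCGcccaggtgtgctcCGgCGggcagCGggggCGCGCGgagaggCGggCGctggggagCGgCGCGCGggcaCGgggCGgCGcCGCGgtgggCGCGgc

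The stretch before the first start of Cobl holds 36 CG dinucleotides, more than 97.4% of the 32851 promoters in the table, and 75.2% of its bases are G or C. The stretch of Accsl printed here holds 0, and those of Ttn and Myo1f hold 4 each, against a median of 6 over all promoters. Calml4 has 8 and Ceacam20 has 3. The other start of Cobl holds 0, and the other 2 of Accsl hold 5 and 1. The 6 genes with a sequence thus share no common CG content at these annotated starts. Which start these cells use was not measured.

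Short motifs were searched in the same 250 bases on both strands. The E-box CANNTG, bound by basic helix-loop-helix factors, was in 9 of the 9 stretches and in 66.2% of all promoters. Its form CAGCTG, one of those preferred by muscle regulators and counted within the E-box too, was in 4 of 9, before Myo1f, Ceacam20 and 1 start each of Accsl and Cobl, against 13% of all promoters. The printed stretch of Ttn holds no CAGCTG. The GC box GGGCGG was in 3 of 9 (32.7% of all promoters), CACCC in 6 of 9 (52.0%), CCAAT in 2 of 9 (33.8%), TATAAA in 1 of 9 (12.4%) and the STAT element TTCNNNGAA in 1 of 9, before Calml4 (7.02%). The extended nuclear receptor half-site AAGGTCA (4.08%) and the octamer ATGCAAAT (1.6%) were in 0 of 9. Several stretches belong to the same gene, and a match to these letters is not a measured binding site.

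**Figure D1:**
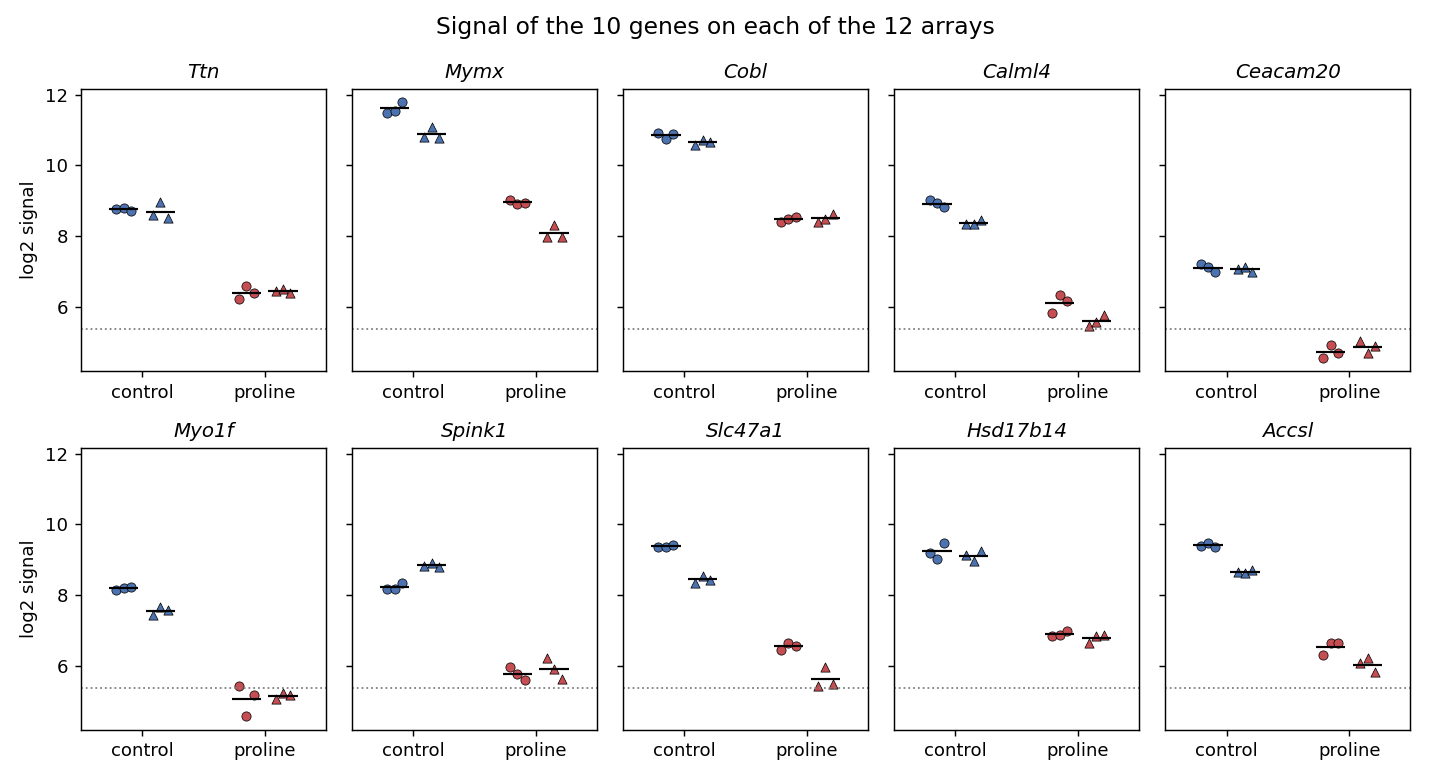
Log2 signal (vertical axis) of the brightest probe set of each gene on every array, control in blue and proline in red. Circles are arrays of biological replicate 1, triangles those of replicate 2, short bars replicate means, and the dotted line is the 40th percentile of probe sets (5.36). In all 10 genes the 6 proline arrays lie below the 6 control arrays, and in Slc47a1, Mymx, Accsl and Calml4 the triangles lie below the circles in both groups.

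Over the 10 genes, each read by its brightest probe set, the difference between proline and control ran from -2.83 in Slc47a1 to -2.26 in Cobl on the log2 scale, with a median of -2.71, beside -0.03 over all genes. The lowest control array stood above the highest proline array in every one of them, by 1.71 to 2.005. Such separation holds for 10.8% of all genes, and limma placed 1.34% of all genes lower at an adjusted p of 0.05. The 10 genes were chosen for large and consistent decreases in this same comparison, so nothing is read from either share here. In the order of decrease over all 18193 genes they stood at places 4 (Slc47a1), 5 (Calml4), 6 (Myo1f), 8 (Accsl), 9 (Mymx), 10 (Spink1), 27 (Hsd17b14), 29 (Ttn), 30 (Ceacam20) and 32 (Cobl). In a bulk culture, fewer cells with a transcript and less transcript per cell cannot be told apart.

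Detection calls were not used here, so these values do not show which of the transcripts were still present after proline. By percentile among probe sets, the proline signals lay from 26.5 in Ceacam20 and 30.8 in Myo1f, over 41.4 in Spink1 and 41.5 in Calml4, to 74.5 in Cobl and 74.8 in Mymx. Where the signal is dim the measured folds are not exact.

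The muscle genes differed in how steady they were. Titin read 8.75 and 8.69 in control replicates 1 and 2, and 6.40 and 6.45 after proline. That is a measured 4.92-fold lower signal (log2 difference -2.30 ± 0.11, moderated SE), with replicates of a group within 0.06 of each other. Single control arrays ran from 8.51 to 8.97 (median 8.73) and proline arrays from 6.22 to 6.58 (median 6.42), with no overlap. Mymx read 11.61 and 10.89 in control and 8.95 and 8.09 after proline. Its control arrays lay between 10.79 and 11.80 (median 11.28) and its proline arrays between 7.98 and 9.02 (median 8.62). It was thus a measured 6.63-fold lower (-2.73 ± 0.39), with replicate 2 below replicate 1 in both groups and no overlap between the groups.

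Titin is measured by 6 probe sets, and they do not say the same thing. A second probe set, whose signal in control was 7.85 ± 0.10 (SD, n = 2 biological replicates), was lower after proline by a similar amount (-1.97). The other 4 read from 3.94 to 4.84 in control, all under the 40th percentile, and their differences ran from -0.30 to 0.04 with arrays of the groups overlapping. These 4 are dim in both groups. The median over the 6 probe sets would give titin a difference of -0.17.

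The actin and microvillus genes came next. Cobl read 10.85 and 10.65 in control and 8.48 and 8.51 after proline. The replicates of a group lay within 0.19 of each other, and the signal was a measured 4.78-fold lower (-2.26 ± 0.13). Control arrays of Cobl spanned 10.58 to 10.90 and proline arrays 8.40 to 8.63, both narrow ranges. The other Cobl probe set was lower by 0.53 (log2), from values of 6.17 and 6.01 to 5.54 and 5.57. Both Cobl probe sets separate the groups but by unequal amounts, and their median is -1.39.

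Calml4 read 8.92 and 8.38 in control and 6.10 and 5.60 after proline, a measured 6.96-fold lower signal (-2.80 ± 0.27). Replicate 2 was the lower one in both groups, by about the same step, and the 6 control arrays (8.33 to 9.01) stood clear of the 6 proline arrays (5.45 to 6.33). Ceacam20 read 7.11 and 7.06 in control and 4.72 and 4.87 after proline (-2.29 ± 0.12). Its replicates were among the closest of the 10 genes, although its proline signal was under the 40th percentile on every array, from 4.55 to 5.03.

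Myo1f, the leukocyte myosin, read 8.19 and 7.55 in control and 5.05 and 5.15 after proline on its brightest probe set (-2.77 ± 0.24), with control arrays from 7.42 to 8.23 and proline arrays from 4.56 to 5.42. A second probe set read 7.26 and 6.67 in control against 3.45 and 3.08 (-3.70), and the last one 7.20 and 6.99 against 5.93 and 5.80 (-1.23). All 3 were lower after proline and separated the groups on every array. Their sizes differ, so that the direction is shared by the 3 probe sets and the fold is not.

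Spink1, the pancreatic trypsin inhibitor, read 8.23 and 8.83 in control and 5.77 and 5.91 after proline, a measured 6.45-fold lower signal (-2.69 ± 0.23). It was the only one of the 10 with control replicate 2 above control replicate 1, and its 6 proline arrays (5.59 to 6.21, median 5.83) stayed under its 6 control arrays (8.16 to 8.89, median 8.57). Slc47a1, the cation exporter, read 9.38 and 8.44 in control and 6.54 and 5.62 after proline (-2.83 ± 0.45). Among the brightest probe sets of the 10, its measured fold of 7.10 was the largest. So was its spread between replicates, 0.94 in control and 0.92 after proline. Even so, its lowest control array read 8.35 and its highest proline array 6.63.

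Of the enzymes, Hsd17b14 read 9.23 and 9.11 in control and 6.89 and 6.78 after proline, a measured 5.06-fold lower signal (-2.34 ± 0.12). Its second probe set read 8.78 and 8.38 against 6.73 and 6.19 (-2.12), so both gave nearly the same difference. On the first, control arrays ran from 8.96 to 9.48 (median 9.16) and proline arrays from 6.63 to 6.99 (median 6.84). Accsl read 9.41 and 8.65 in control and 6.54 and 6.03 after proline, a measured 6.72-fold lower signal (-2.75 ± 0.32). Its control arrays (8.61 to 9.47) and proline arrays (5.81 to 6.65) stay apart by more than the step between its replicates.

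**Figure D2:**
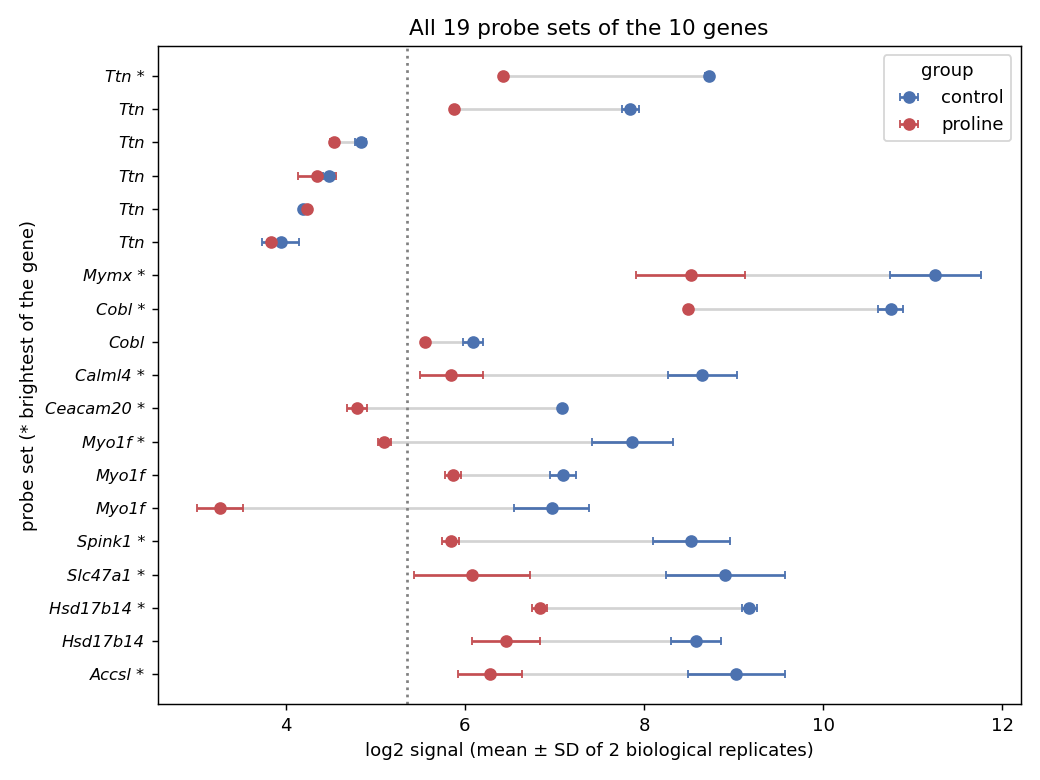
Log2 signal (horizontal axis) of all 19 probe sets of the 10 genes, 1 per line, as mean ± SD of 2 biological replicates, control in blue and proline in red. An asterisk marks the brightest probe set of a gene and the dotted line the 40th percentile of probe sets (5.36). In 18 of 19 the proline mean lies left of the control mean, in 15 of 19 no arrays of the groups overlap, and the 4 that overlap are the dim probe sets of Ttn.

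Across all 19 probe sets, 14 were at least 2-fold lower, and the 5 that were not are the 4 dim ones of titin and the dimmer one of Cobl. For 6 genes 1 probe set is all there is. The 3 arrays of a replicate had an SD of 0.03 to 0.44 (median 0.11) for the brightest probe sets, well under the differences between the groups.

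The steps between biological replicates split the genes further. Control replicate 2 was below control replicate 1 in 9 of the 10 (53% of all genes), and proline replicate 2 below proline replicate 1 in 5 of 10 (55.1% of all genes). Both held in 5 of 10, namely Slc47a1, Mymx, Accsl, Calml4 and Hsd17b14, beside 33% of all genes. In the first 4 the steps were -0.54 to -0.94 in control and -0.50 to -0.92 after proline. In Ttn, Cobl, Ceacam20 and Hsd17b14 they did not exceed 0.19 in either group. Median steps over the 10 genes were -0.37 in control and -0.04 after proline, beside -0.02 and -0.03 over all genes.

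The array controls differed between replicates too. The 18S ribosomal RNA probe sets read 10.74 and 10.04 in control and 9.74 and 8.35 after proline. Slc47a1, Mymx, Accsl, Calml4 and Hsd17b14 have the same order of the 4 replicates, as do the hybridization spike-ins, at 11.50 and 11.37 in control and 11.31 and 11.06 after proline. Spike-ins with a poly-A tail, a control of the labelling step, gave 8.35 and 7.999 in control and 8.02 and 7.55 after proline, so proline replicate 1 lay above control replicate 2. The difference between the 5′ and 3′ signal of beta-actin was -0.90 and -0.50 in control and -0.66 and -0.24 after proline, higher in replicate 2 of both groups, the opposite direction to these genes. The part of RNA quality and labelling in the levels of these genes was not tested.

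**Figure D3:**
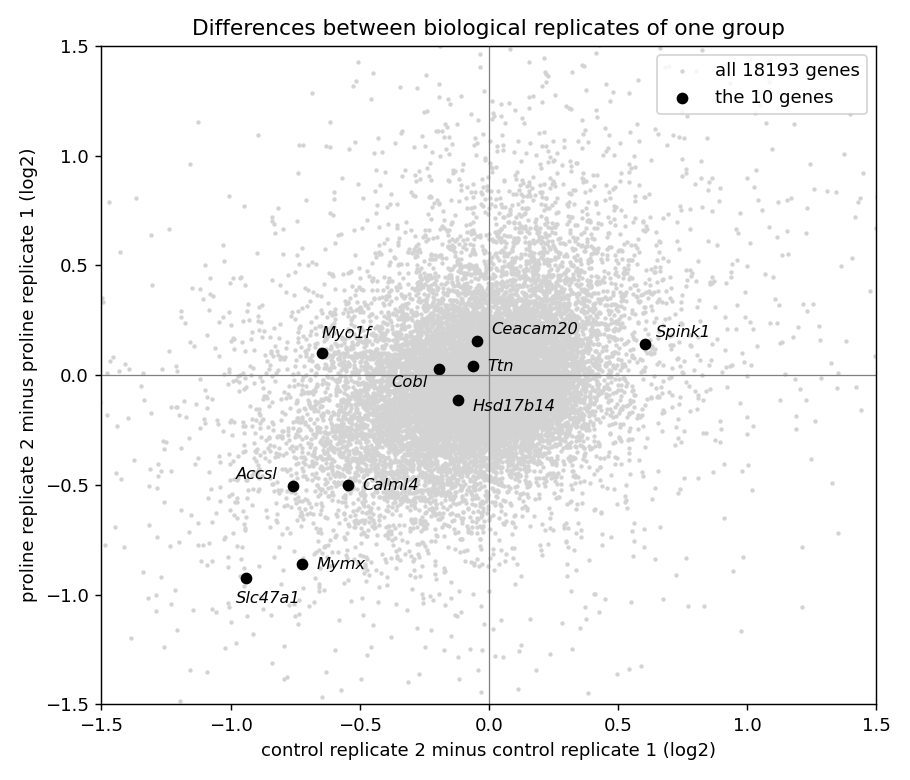
Replicate 2 minus replicate 1 on the log2 scale within control (horizontal axis) and within proline (vertical axis), for the 10 genes in black and all genes in grey, of which 159 lie outside the axes. Slc47a1, Mymx, Accsl and Calml4 lie at the lower left, Spink1 alone lies right of 0, and Ttn, Cobl, Ceacam20 and Hsd17b14 lie near the centre.

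The genes whose 4 replicate means, each gene centred on its own mean, ran closest to the median course of the 10 were Ddc, Tet2, Notum, Slc66a2 and Triml1, with root mean square differences of 0.08 to 0.20 (log2). Ddc, an amine-forming decarboxylase, read 9.89 and 9.44 in control and 7.41 and 7.20 after proline. Among the 10 genes themselves this distance ran from 0.12 in Hsd17b14 to 0.38 in Slc47a1, so Ddc, Tet2, Notum and Slc66a2 lie nearer to the median course than any of the 10 does. Just outside the 10, the next decreases among genes past the threshold with separated arrays were Myom2 (-2.24), Smarcd3 (-2.16), Manba (-2.15), Mylpf (-2.13) and Mitf (-2.12), and just inside was Cobl (-2.26). Myom2 and Mylpf encode proteins of the sarcomere and its myosin.

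The relatives of these genes, and markers of the tissues they are known from, were listed by family and tissue and tested with all genes in limma. In 12 lists, 168 different genes were measured, of which 6 were lower at an adjusted p of 0.05, 4 were higher and 158 did not pass. That is 3.57% lower beside 1.34% of all genes and 2.38% higher beside 3.03%. The lists were chosen with earlier results of these data known, so these shares are a description and their difference is no test. The median difference was -0.04. Leaving out replicate 1 or 2 of the control group, or replicate 1 or 2 of the proline group, let 0 of the 168 and 0 of all genes pass in limma, and 23, 28, 35 and 24 of the 168 then had an unadjusted p under 0.05. With all replicates 33 of the 168 had one (19.6%), beside 22.1% of all genes, and the counts at this p given list by list are to be read against that share.

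Of 31 measured genes of skeletal and cardiac muscle on the list, 0 passed in either direction in limma, 5 had an unadjusted p under 0.05, and the median difference was -0.0002. The sarcomere genes Myom2 (-2.24 ± 0.19, adjusted p = 0.0246) and Mylpf (-2.13 ± 0.20, adjusted p = 0.0274), which are not on the list, were both lower past the threshold. Mymk, whose product myomaker works with myomixer in cell fusion, read 3.93 in control and 3.91 after proline. The myogenic factors Myod1 (4.97 and 5.07), Myf5 (2.52 and 2.75), Myf6 (3.93 and 4.01) and Myog (5.18 and 4.68) were also under the 40th percentile in both groups. Of the 31 genes, 17 read above that percentile in control and 17 after proline. Des (8.18 in control and 8.70 after proline) and Tnnt1 (7.13 and 7.48) were among them. Smallest in p were Myog (-0.50 ± 0.12, adjusted p = 0.109 in limma) and the actin gene Actc1 (1.49 ± 0.37, adjusted p = 0.109), in opposite directions. The summed linear signal of the list was 1894 to 1961 in control and 1926 to 2387 after proline.

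The microvillus and brush border list held 0 of 19 genes past the threshold in limma and a median of -0.05, and 5 had an unadjusted p under 0.05. Mep1b, a brush border metalloprotease that is not on the list and was noticed after its value was seen, was lower past the threshold (-2.42 ± 0.22, adjusted p = 0.0259). Of the complex that links microvillus tips, in which Calml4 is a light chain, Myo7b read 6.31 in control and 6.29 after proline, Ush1c 5.71 and 5.56, Cdhr5 5.85 and 5.72, and Cdhr2 4.11 and 4.09. Myo1a, the brush border myosin, measured -0.76 ± 0.14 (adjusted p = 0.0639 in limma) and the actin capping gene Eps8 -0.51 ± 0.12 (adjusted p = 0.0994). The rest of those at an unadjusted p under 0.05 were above 0. They were Pdzk1 (1.11 ± 0.35, adjusted p = 0.168), Espn (0.59 ± 0.19, adjusted p = 0.170) and Mme (1.13 ± 0.40, adjusted p = 0.205). Villin (Vil1) read 5.39 in control and 5.46 after proline. The list's summed signal was 3879 to 4237 in control and 4345 to 4725 after proline.

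Among other actin nucleators, those past the threshold were higher, the opposite direction to Cobl. Of the 21 on the arrays, 9 had an unadjusted p under 0.05 in limma and 4 passed, each of them higher. They were the formins Diaph2 (2.19 ± 0.28, adjusted p = 0.0363 in limma) and Fmnl2 (0.996 ± 0.15, adjusted p = 0.0440), Spire1 (1.197 ± 0.17, adjusted p = 0.0405), and the relative of Cobl itself, Cobll1 (1.76 ± 0.18, adjusted p = 0.0289). Cobll1 read 3.31 and 3.71 in control, under the 40th percentile, and 5.17 and 5.37 after proline, and its other probe set gave 0.26. Was (-0.61 ± 0.15, adjusted p = 0.111) and Fmn2 (0.88 ± 0.22, adjusted p = 0.113) did not pass. When probe sets were reduced to their median, Diaph2 alone of the 4 passed.

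Class I myosins beside Myo1f held 0 of 6 past the threshold in limma and 3 at an unadjusted p under 0.05. The 3 were Myo1a, given above, Myo1g and Myo1d. Myo1d was higher after proline (0.69 ± 0.21, adjusted p = 0.157 in limma), and its other probe set gave -0.16. Myo1g, like Myo1f known from blood cells, read 7.56 and 6.12 in control and 4.96 and 4.73 after proline (-1.995 ± 0.49, adjusted p = 0.108). Its control replicates lay 1.44 apart. The widely expressed Myo1c read 10.62 in control and 10.85 after proline, and Myo1e 8.51 and 8.52.

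Among 15 leukocyte markers, 3 had an unadjusted p under 0.05 in limma. The lysosomal membrane gene Laptm5 fell and 14 did not pass. It read 10.54 and 9.44 in control and 7.60 and 7.50 after proline (-2.44 ± 0.38, adjusted p = 0.0470 in limma), with all of its 5 probe sets lower and the weakest at -0.08. With the median over them it measured -1.40 and did not pass. The defining marker Ptprc (CD45) read 3.66 in control and 3.64 after proline, and Cd53, Cd52, Itgam, Itgb2 and Tyrobp were under the 40th percentile in both groups. Of the 15 markers, 7 read above that percentile in control and 6 after proline. Laptm5, Cd68 (7.86 in control and 7.44 after proline) and Arhgdib (7.69 and 7.27) were among them. Coro1a (0.94 ± 0.23, adjusted p = 0.107) and Itgam (-0.50 ± 0.16, adjusted p = 0.172) did not pass. The summed signal was 1580 to 2535 in control and 1111 to 1164 after proline, and the part of leukocytes in the level of Myo1f was not tested.

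Of 16 pancreatic acinar genes, 2 fell and 14 did not pass, and 2 had an unadjusted p under 0.05 in limma. The chymotrypsin-like protease gene Ctrl read 7.07 and 7.22 in control and 6.06 and 5.89 after proline (-1.17 ± 0.13, adjusted p = 0.0305 in limma). The nuclear receptor Nr5a2 (-1.93 ± 0.12, adjusted p = 0.0246) is also a pluripotency factor of embryonic stem cells. The acinar master factor Ptf1a read 4.24 in control and 4.15 after proline, and the digestive enzyme genes Cpa1, Cpb1 and Cel were under the 40th percentile in both groups. Of the 16 genes, 9 read above that percentile in control and 8 after proline. The enzyme genes Prss2 (6.53 in control and 6.61 after proline) and Cela3b (6.69 and 6.67) were among them. Cela2a (-0.27 ± 0.16, adjusted p = 0.422) and Cuzd1 (-0.19 ± 0.12, adjusted p = 0.470) did not pass. Among Kazal and Serpin inhibitors, Spink10 fell (-1.21 ± 0.18, adjusted p = 0.0452), at signals of 4.63 in control and 3.42 after proline that are both under the 40th percentile, and 10 of 11 did not pass, among them Serpinh1 (1.34 ± 0.49, adjusted p = 0.216) and Serpinb9 (1.59 ± 0.77, adjusted p = 0.332). With quantile normalization, or the median over probe sets, Spink10 did not pass. Of the 11 inhibitors, 2 had an unadjusted p under 0.05 in limma.

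In the Ceacam family, 1 of 10 had an unadjusted p under 0.05 in limma. Ceacam1 fell and 9 of 10 did not pass. This adhesion receptor read 8.51 and 8.93 in control and 7.33 and 7.42 after proline (-1.35 ± 0.18, adjusted p = 0.0385 in limma), and all 8 of its probe sets were lower, the weakest by 0.76. With the median over them it measured -2.38. Ceacam18 (-0.18 ± 0.16, adjusted p = 0.615) and Ceacam10 (0.11 ± 0.14, adjusted p = 0.728) were dim in both groups. Of 12 organic ion and drug transporters, the efflux pump gene Abcb1a fell by 0.80 ± 0.12 (log2, adjusted p = 0.0440) and 11 did not pass, among them the breast cancer resistance pump gene Abcg2 (0.52 ± 0.14, adjusted p = 0.121) and the carnitine carrier gene Slc22a5 (0.38 ± 0.22, adjusted p = 0.411). Abcb1a did not pass with an intensity trend or the median over probe sets. Of the 12 transporters, 2 had an unadjusted p under 0.05 in limma.

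The remaining lists held 0 genes past the threshold in limma. They were 11 hydroxysteroid dehydrogenases and relatives of Hsd17b14, with 1 at an unadjusted p under 0.05, 7 calmodulins and myosin light chains beside Calml4, with 1, and 10 genes of the 2-cell-stage embryo, with 0. Hsd17b3 measured -0.35 ± 0.12 (adjusted p = 0.193) and the retinol dehydrogenase Rdh10 0.88 ± 0.37 (adjusted p = 0.269). Myl9, the smooth muscle light chain, measured 1.42 ± 0.28 (adjusted p = 0.0712) and Myl12a 0.36 ± 0.20 (adjusted p = 0.397). Arg2 (0.23 ± 0.11, adjusted p = 0.317) and Eif1a (-0.16 ± 0.11, adjusted p = 0.506) came first by p among the embryo genes.

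**Figure D4:**
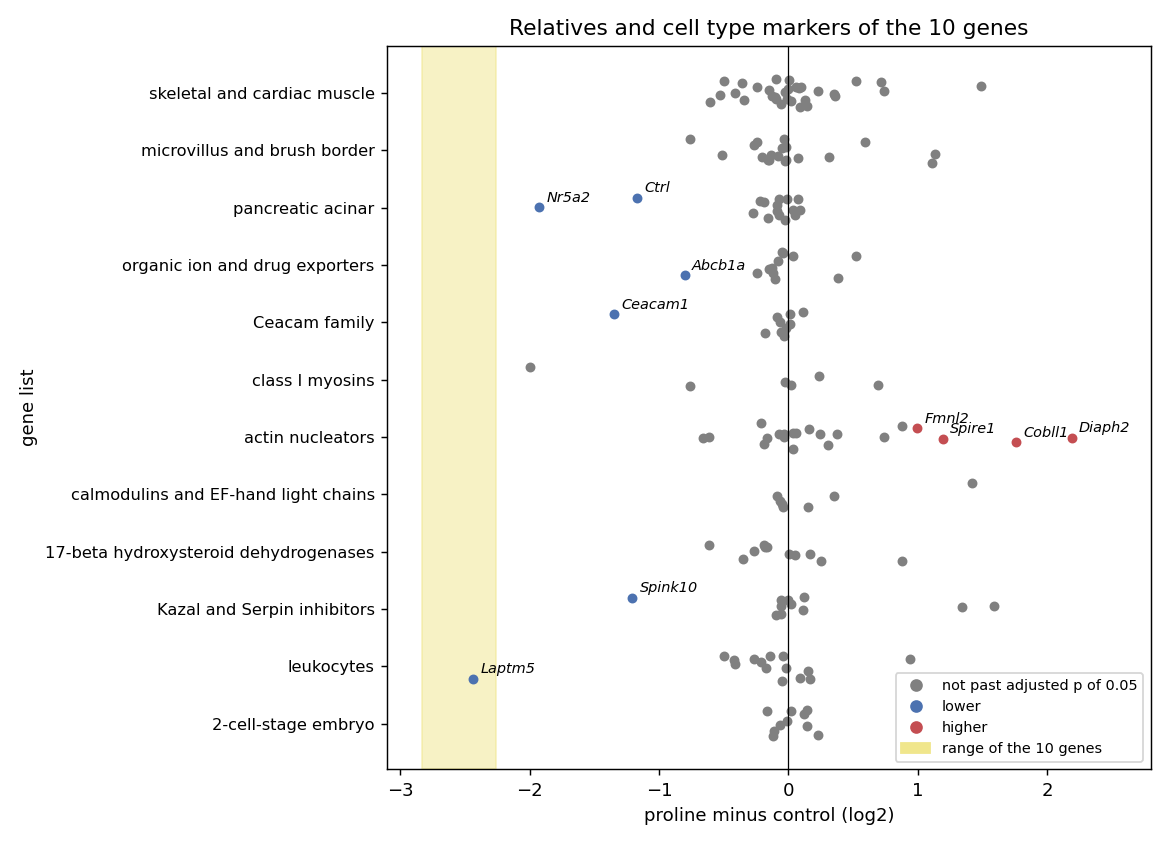
Proline minus control on the log2 scale (horizontal axis) for each measured gene of 12 lists (vertical axis), with points spread at random within a line. Genes past an adjusted p of 0.05 in limma are blue (lower) or red (higher) and named, others are grey, and the yellow band spans the 10 genes, from -2.83 to -2.26. Of the listed genes past the threshold, Laptm5 lies inside the band, which rests on the brightest probe sets. With the median over probe sets Laptm5 measures -1.40 and Ceacam1 -2.38. The 10 genes then span a wider range, from -2.83 in Slc47a1 to -0.17 in Ttn. The muscle and brush border points lie around 0, and Myom2, Mylpf and Mep1b are on no list and not drawn.

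The genes next to the 10 on the chromosome gave a further comparison, with the nearest measured gene on each side taken from the RefSeq table. Of 20 neighbours, 0 passed in limma, beside 4.36% of all genes in either direction. At an unadjusted p under 0.05 there were 6 (30%, beside 22.1% of all genes), and the median difference was 0.06. Accs, the paralogue that lies beside Accsl, read 7.18 in control and 7.05 after proline (-0.12 ± 0.17, adjusted p = 0.760).

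Of the 6 neighbours at an unadjusted p under 0.05 in limma, 3 were below 0 and 3 above 0. Slc29a1, a nucleoside transporter gene beside Mymx, measured -1.07 ± 0.18 (adjusted p = 0.0553 in limma), and it passed when dim genes were left out or an intensity trend was used. Plekha4 beside Hsd17b14 measured -1.14 ± 0.38 (adjusted p = 0.186) and Igsf23 beside Ceacam20 -0.60 ± 0.23 (adjusted p = 0.225). On the other side of Ceacam20, Nlrp9b measured 0.62 ± 0.17 (adjusted p = 0.132). Cln6 beside Calml4 measured 0.70 ± 0.22 (adjusted p = 0.166) and Zfp414 beside Myo1f 0.32 ± 0.12 (adjusted p = 0.219). The other 13 neighbours, among them both of Ttn, Cobl, Spink1 and Slc47a1, measured between -0.41 and 0.37.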

How the data were processed

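Signals of 45101 probe sets on 12 arrays were deposited on a log2 scale, normalized across arrays by the authors. The submitters' processing notes list MAS5 and RMA with no version, and do not say which of these made the table, and detection calls were not used here. Names came from the platform annotation, and the probe set brightest on average over all arrays stood for a gene. The 3 arrays of a biological replicate were averaged, which leaves 2 values per group. The number of arrays limits the precision. All 18193 genes were fitted in R 4.3.3 by the lmFit and eBayes functions of limma 3.58.1 (two-sided, Benjamini-Hochberg adjustment, threshold 0.05), which had 2 residual and 2.60 prior degrees of freedom, and ± after a log2 difference is its moderated SE. No filter on dim signals was applied.

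The members and lists were chosen with earlier results of these data known, and members carry no test. Named were all members, list genes past the threshold, the 2 others of each list with the smallest p, neighbours, the 5 nearest profiles and the 5 next decreases. Other genes named were chosen after their values were seen. Alternatives were other scalings, a dim filter, the median over probe sets, other units of replication, a trend and leaving out replicates. Figures used matplotlib 3.10.9.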

Additional observations from a re-analysis of the deposited data

Results flagged for a closer look

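Each of the 19 probe sets of the 10 genes was checked, in each group of 6 arrays, for an array far from the others, 38 checks in all. In 1 of them, a dim probe set of Ttn, control array 2b read 4.65 while the nearest of the other 5 control arrays read 4.83, a gap of 0.65 of the group's whole range. Chance flags about 1 in 20 such groups. This probe set lies under the 40th percentile in both groups.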

How the results depend on the processing

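The median difference of the 10 genes was -2.72 with quantile normalization, -2.71 with median centring and -2.49 with the median over probe sets, and ran from -2.74 to -2.36 when each biological replicate was left out. Single genes ran from -3.30 to -1.39 over all alternatives except Ttn at -0.17 with the median over probe sets. The count of all genes past the threshold, 794, became 351 with the median over probe sets, 6804 with 12 arrays as independent samples and 3987 with 12 arrays in a random block. Of the family and cell type genes, 3, 24 and 13 were then lower and 1, 26 and 19 higher, and 0, 8 and 5 neighbours passed. Leaving out dim genes or an intensity trend gave 1 neighbour each. With any 1 biological replicate left out, 0 genes passed in all of these counts, with 2766 to 3676 genes at an unadjusted p under 0.05; such fits have 1 residual degree of freedom and assume that a lone sample varies like the other group.

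With the replicate number as a replicate block, 2039 genes passed, with 9 family and cell type genes lower and 8 higher, and 3 neighbours, Slc29a1, Plekha4 and Igsf23. Replicate 2 minus replicate 1 correlated between the groups across genes at r = 0.338, and with 2 pairs the samples share only a number. Why the other alternatives move the counts was not tested. Signal over background was not used here, which limits what is said of dim probe sets.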

Other observations

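Of the genes past the threshold whose arrays did not overlap, 15 others had a decrease at least as large as that of Cobl. Named after their values were seen, they include Gsta3 (-2.56), a glutathione transferase, Jam2 (-2.27), a junction adhesion molecule, and Fgf18 (-2.57), a growth factor.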
